A study of Homo sapiens with 6 samples.

Results

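The genes described here make cholesterol and fatty acids or control that work. They are 30 SREBP-regulated genes chosen by their role, 20 of the sterol branch and 10 of the fatty acid branch, out of 60664 gene IDs in the count table, and all 30 were found there by symbol. RNA was sequenced from HCT-8, an established line of human colorectal carcinoma cells. The cells carried a plasmid with a short hairpin RNA against the splicing-associated gene PNISR (shPNISR, 3 libraries) or a control hairpin plasmid (shNC, 3 libraries). Cells of both groups grew in DMEM with fetal bovine serum, and serum brings its own cholesterol and fatty acids. The sources used here do not give the hairpin's sequence, the time between transfection and harvest, or whether the libraries came from separate cultures. The p-values therefore reflect the spread among these libraries only, and that spread may be technical. The study is about alternative splicing, while the values used here are read counts per gene.

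Cells make cholesterol from acetyl-CoA through mevalonate, isoprenoids, squalene and lanosterol, and make fatty acids from the same acetyl-CoA through malonyl-CoA. Transcription factors of the SREBP family, encoded by SREBF2 and SREBF1, switch on these genes when membrane sterol is low. When sterol is plentiful, INSIG proteins hold the SREBP precursors in the endoplasmic reticulum, and the enzymes' mRNAs usually fall together. Intestinal epithelium is an active site of both pathways, and many colorectal tumours express the fatty acid branch strongly.

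SREBP proteins bind sterol regulatory elements beside sites for NF-Y (the CCAAT box) and Sp1 (the GC box). RefSeq promoter windows on GRCh38.p14, each from 250 bases before to 50 after a start site, were found for 27 of the 30 genes, in 37 windows. FDFT1, SQLE and FASN were not searched here. Motifs were searched on both strands. The letters CCAAT were in 25 of the 37 windows (67.6%), against 34.6% of all 35116 windows. In the sterol branch they were in 18 of 23 windows (78.3%) and in the fatty acid branch in 7 of 14. GGGCGG was in 33 of 37 windows (89.2%), against 45.0% of all windows, and the E-box CACGTG in 4 (10.8%), against 7.26%. Windows of the same gene can overlap, as those of SC5D do, so a site may be counted in each. By gene, CCAAT was in 21 of 27, against 10846 of 27305 genes over all windows. GGGCGG was in 26 genes, against 13189, and CACGTG in 3, against 2396. The sterol regulatory element TCACNCCAC was in 1 of the 37 windows, that of SREBF2 (2.70%, against 1.13% of all windows). Only these letters were searched, so other spellings of the element, or sites outside the windows, were not counted. These counts describe letters and do not show binding.

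The windows of 5 members are printed because the results below turn on these genes. Capitals mark the sterol regulatory element in SREBF2, CCAAT boxes in INSIG1 and HMGCS1, and the GC box in ELOVL6 and ME1, in either orientation, and no other searched motif overlaps the marked letters. No CCAAT was found in the windows of ELOVL6 or ME1. HMGCS1 has another window, chr5:43313132-43313431, in which no CCAAT was found. The HMGCS1 window shown was taken because it held more of the marked sites. SREBF2 is shown from chr22:41832855-41833154 on the plus strand, INSIG1 from chr7:155297628-155297927 on the plus strand, HMGCS1 from chr5:43313363-43313662 on the minus strand, ELOVL6 from chr4:110198566-110198865 on the minus strand and ME1 from chr6:83431002-83431301 on the minus strand.
SREBF2: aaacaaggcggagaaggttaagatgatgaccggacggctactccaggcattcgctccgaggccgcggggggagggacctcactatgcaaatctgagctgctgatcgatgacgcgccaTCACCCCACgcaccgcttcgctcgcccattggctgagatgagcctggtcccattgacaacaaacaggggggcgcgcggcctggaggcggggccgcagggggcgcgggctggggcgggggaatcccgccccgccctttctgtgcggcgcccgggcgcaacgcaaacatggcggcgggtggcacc
INSIG1: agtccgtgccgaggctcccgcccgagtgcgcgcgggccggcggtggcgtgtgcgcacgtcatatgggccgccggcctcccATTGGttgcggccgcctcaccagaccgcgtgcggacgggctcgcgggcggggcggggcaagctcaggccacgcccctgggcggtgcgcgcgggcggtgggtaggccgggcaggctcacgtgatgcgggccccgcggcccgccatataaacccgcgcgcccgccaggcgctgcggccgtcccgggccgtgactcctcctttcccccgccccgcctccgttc
HMGCS1: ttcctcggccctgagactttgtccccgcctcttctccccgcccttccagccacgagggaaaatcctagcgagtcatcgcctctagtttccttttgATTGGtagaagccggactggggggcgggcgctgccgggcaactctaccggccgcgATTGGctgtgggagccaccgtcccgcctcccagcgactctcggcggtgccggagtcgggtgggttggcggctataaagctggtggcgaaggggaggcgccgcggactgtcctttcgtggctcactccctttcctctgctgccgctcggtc
ELOVL6: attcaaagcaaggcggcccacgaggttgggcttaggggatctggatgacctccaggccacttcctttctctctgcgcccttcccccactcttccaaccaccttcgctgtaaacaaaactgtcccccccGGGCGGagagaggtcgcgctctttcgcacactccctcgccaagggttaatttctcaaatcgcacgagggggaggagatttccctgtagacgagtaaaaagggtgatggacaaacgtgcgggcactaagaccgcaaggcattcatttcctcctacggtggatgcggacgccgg
ME1: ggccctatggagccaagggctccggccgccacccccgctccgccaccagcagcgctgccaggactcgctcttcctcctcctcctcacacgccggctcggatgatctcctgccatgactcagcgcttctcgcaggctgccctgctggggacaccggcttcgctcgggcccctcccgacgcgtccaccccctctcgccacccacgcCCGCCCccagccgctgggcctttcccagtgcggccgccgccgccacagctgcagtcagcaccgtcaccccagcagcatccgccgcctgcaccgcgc

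Each SREBP gene also carries a microRNA within its transcribed region, and these microRNAs are known to repress the cholesterol exporter ABCA1. Their mature 5p strands from RefSeq (GRCh38.p14) are shown because they differ outside the seed but share it (bases 2 to 8, in capitals). The first lies at chr22:41900949-41900969 on the plus strand and the second at chr17:17813897-17813916 on the minus strand. The gene count table held 0 reads for MIR33A and 3 reads for MIR33B over the 6 libraries, and it does not measure mature microRNAs.
hsa-miR-33a-5p in SREBF2: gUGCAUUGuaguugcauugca
hsa-miR-33b-5p in SREBF1: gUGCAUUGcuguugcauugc

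Total counts ranged from 15703210 to 17299847 in the shPNISR libraries and from 15049485 to 17977803 in the shNC libraries. The hairpin's target checks the labels: PNISR was at 18.5, 20.7 and 27.6 CPM in shPNISR 1 to 3, against 55.3, 50.2 and 62.8 CPM in shNC 1 to 3 (CPM, read counts scaled by library size and TMM factor), and the groups did not overlap. In bulk RNA, a lower level in every cell and silencing in some of the cells cannot be told apart. Its log2 fold change was -1.33 ± 0.15 (SE; edgeR quasi-likelihood test, Benjamini-Hochberg adjusted p = 8.73e-05). Of the 8 colorectal epithelial markers, EPCAM, CDH1, KRT8, KRT18, VIL1 and CDX2 were well above the count filter, while KRT20 and CEACAM5 held at most 7 reads in any library. The sum of the 8 markers was at 5433, 5367 and 4290.4 CPM in shPNISR 1 to 3, against 4019.7, 4446 and 4249 CPM in shNC 1 to 3. EPCAM was higher in every shPNISR library without passing the test (0.43 ± 0.14, edgeR adjusted p = 0.103). Summed markers of fibroblasts were at 24.6 to 29.0 CPM in shPNISR and 16.2 to 24.7 CPM in shNC, those of adipocytes at 2.33 to 3.08 CPM in shPNISR and 0.799 to 1.55 CPM in shNC, and those of hepatocytes at 21.3 to 24.8 CPM in shPNISR and 14.4 to 20.7 CPM in shNC. Those of leukocytes were at 4.09 to 5.58 CPM in shPNISR and 3.53 to 4.86 CPM in shNC, and those of endothelium at 1.41 to 1.66 CPM in shPNISR and 0.718 to 1.49 CPM in shNC. The hepatocyte sum was nearly all SERPINA1. SERPINA1 was at 24.5, 23.1 and 21.3 CPM in shPNISR 1 to 3, against 14.4, 20.4 and 15.9 CPM in shNC 1 to 3. The other hepatocyte markers, ALB, APOA1 and TTR, held at most 3 reads in any library. COL1A1 made up most of the fibroblast sum in every library, and KRT8 and KRT18 together most of the epithelial sum. The defining markers COL1A2, PTPRC, ADIPOQ and LEP held 0 reads in all 6 libraries. Of 4 adipocyte markers, 2 were tested and CIDEC, which encodes a lipid droplet protein, rose (edgeR adjusted p = 0.0395). CIDEC held 42, 29 and 27 reads in shPNISR 1 to 3, against 15, 14 and 3 in shNC 1 to 3. Of 6 leukocyte markers, 3 were tested and LYZ, lysozyme, fell (edgeR adjusted p = 0.0337). LYZ held 1, 5 and 8 reads in shPNISR 1 to 3, against 16, 21 and 21 in shNC 1 to 3. Both calls rest on few reads. None of the 4 fibroblast, 1 hepatocyte, 1 endothelial and 6 epithelial markers tested was called. Over all tested genes 3.14% were called. Mitochondrial genes held 1.61% to 2.00% of counts in shPNISR and 1.80% to 2.48% in shNC. The part of other cell types or of RNA quality in the results was not tested.

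None of the 30 genes changed by the test. Over the whole table, 505 of 16102 tested genes (3.14%) were called at an adjusted p of 0.05, with 371 (2.30%) higher and 134 (0.832%) lower, and all 30 members passed the low-count filter. The members' adjusted p ran from 0.114 for ME1 to 0.976 for SREBF2. At an unadjusted p under 0.05 there were 4 members, ME1, ELOVL6, HMGCS1 and PMVK, which is 13.3% of 30, against 17.8% of all tested genes. DESeq2 also called 0 members, with 4 at an unadjusted p under 0.05.

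Estimated changes were small in both branches, and the errors given on log2 fold changes are standard errors. Log2 fold changes ran from -0.29 to 0.27 in the sterol branch and from -0.34 to 0.36 in the fatty acid branch. The median was -0.07 over the 20 sterol members and -0.03 over the 10 fatty acid members, against -0.01 over all tested genes. Values were below 0 for 13 of 20 sterol members and 5 of 10 fatty acid members, against 52.1% of all tested genes. No member changed sign when libraries were scaled by DESeq2 size factors or by library totals. In 18 of the 30 the estimate was smaller than its own standard error. The 95% interval of each gene's fold, not adjusted for the number of genes, stayed within 0.623 and 1.53 for every member, so no interval reached a 2-fold change in either direction.

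**Figure D1:**
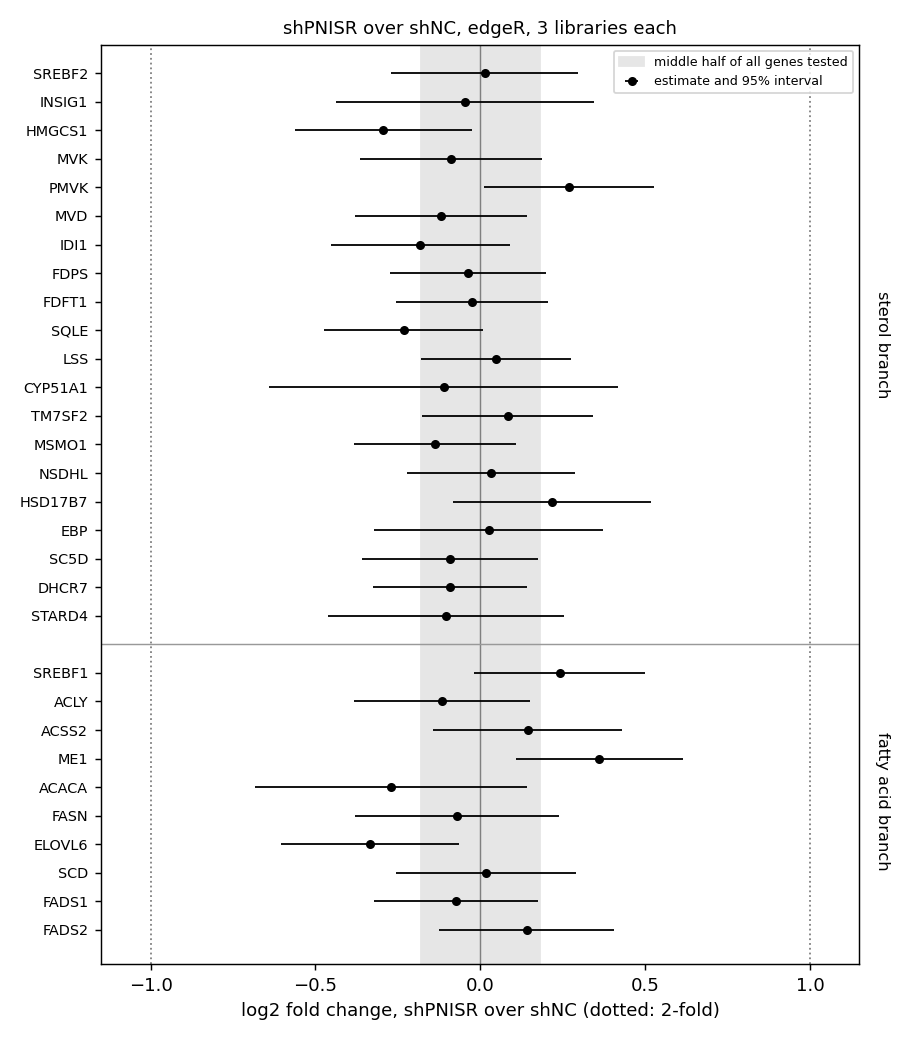
Log2 fold change of shPNISR over shNC for each of the 30 genes in pathway order, with 95% intervals from edgeR (3 libraries each); the grey band runs from the lower to the upper quartile of all tested genes and dotted lines mark 2-fold. Every interval lies between the dotted lines, and those of HMGCS1, PMVK, ME1 and ELOVL6 do not cross 0.

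Separation between groups was seen in 3 of 30 members. The lowest shPNISR value of ME1 lay above its highest shNC value, and for SQLE and ELOVL6 the highest shPNISR value lay below the lowest shNC value. This is 10.0% of members, against 21.1% of all tested genes (11.5% higher and 9.58% lower).

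SREBF2, which encodes the SREBP that mainly drives cholesterol synthesis (ENSG00000198911), was at 183, 156 and 164 CPM in shPNISR 1 to 3, against 155, 207 and 137 CPM in shNC 1 to 3. The highest and the lowest of the 6 values were both in shNC, and the shPNISR values lay inside the shNC range. Its log2 fold change was 0.01 ± 0.14 (edgeR adjusted p = 0.976). SREBF1, which encodes the SREBP forms that mainly drive fatty acid synthesis (ENSG00000072310), was at 97.5, 77.0 and 89.2 CPM in shPNISR 1 to 3, against 69.1, 84.9 and 69.3 CPM in shNC 1 to 3. The shPNISR values were mostly the higher ones, but shNC 2 lay above shPNISR 2. The log2 fold change was 0.24 ± 0.12 (edgeR adjusted p = 0.321). SREBF1 is on chromosome 17 at 17810399 to 17837002 (GRCh38) and overlaps RAI1 on the other strand, so some reads could belong to either gene.

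INSIG1, the sterol-sensing retention protein and itself a target of SREBP (ENSG00000186480), had the widest spread among the shNC libraries of any member. It was at 60.4, 69.1 and 70.2 CPM in shPNISR 1 to 3, against 53.1, 94.6 and 58.5 CPM in shNC 1 to 3. The shNC 2 value stood above the other 5, the shNC 1 value was the lowest, and the coefficient of variation was 8.07% in shPNISR and 32.8% in shNC. The log2 fold change was -0.05 ± 0.18 and changed sign without shNC 2 (0.25, edgeR adjusted p = 0.188).

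In the mevalonate part of the sterol branch, 3 of 4 genes had a value below 0 and 1 above. HMGCS1, the synthase that forms HMG-CoA, was at 49.5, 52.0 and 51.6 CPM in shPNISR 1 to 3, against 69.3, 51.0 and 67.3 CPM in shNC 1 to 3. All shPNISR values lay close together, shNC 1 and shNC 3 stood above them, and shNC 2 lay among them. Its log2 fold change was -0.29 ± 0.13, a fold interval of 0.677 to 0.983 (edgeR adjusted p = 0.235). PMVK, the kinase of phosphomevalonate, was at 63.5, 69.7 and 54.3 CPM in shPNISR 1 to 3, against 49.8, 50.3 and 55.5 CPM in shNC 1 to 3. It leaned the other way, with shPNISR 3 below shNC 3, and its log2 fold change was 0.27 ± 0.12 (edgeR adjusted p = 0.255). MVK, the first mevalonate kinase, and MVD, the decarboxylase that makes isopentenyl diphosphate, were at -0.09 ± 0.13 and -0.12 ± 0.12 on the log2 scale. MVK overlaps MMAB on the other strand.

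From isoprenoids to squalene all 3 genes had values below 0. FDPS, the farnesyl diphosphate synthase, was at 220.0, 215 and 176 CPM in shPNISR 1 to 3, against 197, 216 and 214 CPM in shNC 1 to 3. The shPNISR 3 value was the lowest of the 6 and shPNISR 1 the highest, and the log2 fold change was -0.04 ± 0.11. FDFT1, the squalene synthase that commits carbon to sterols, was at -0.02 ± 0.11 and IDI1, the isopentenyl diphosphate isomerase, at -0.18 ± 0.13. IDI1 averaged 41.6 ± 1.93 CPM in shPNISR and 47.1 ± 7.04 CPM in shNC (SD, 3 libraries each), with its lowest value in shNC 2.

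SQLE, the squalene epoxidase and a rate-limiting step, was the only sterol member whose groups did not overlap. It was at 59.0, 55.1 and 58.5 CPM in shPNISR 1 to 3, against 71.7, 61.1 and 69.9 CPM in shNC 1 to 3. The nearest values were 59.0 CPM in shPNISR 1 and 61.1 CPM in shNC 2. The log2 fold change was -0.23 ± 0.11, a fold interval of 0.721 to 1.01 (edgeR adjusted p = 0.3). LSS, which closes the ring to lanosterol, was at 0.05 ± 0.11.

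Of the 8 genes from lanosterol to cholesterol, 4 had values above 0 and 4 below, and none reached an unadjusted p of 0.05. Corrected for GC content and length, TM7SF2, NSDHL and EBP lay below 0 and SC5D above 0. HSD17B7, a ketosteroid reductase, had the largest of these estimates, at 22.0, 22.3 and 18.4 CPM in shPNISR 1 to 3, against 17.1, 18.8 and 18.0 CPM in shNC 1 to 3. The shNC libraries lay between 17.1 and 18.8 CPM, with 1 shPNISR library among them, and the log2 fold change was 0.22 ± 0.14 (edgeR adjusted p = 0.449). TM7SF2, a sterol reductase, was at 0.08 ± 0.12, NSDHL, a sterol dehydrogenase, at 0.03 ± 0.12, and EBP, the sterol isomerase, at 0.03 ± 0.17. EBP varied more in shPNISR (23.0% coefficient of variation) than in shNC (5.26%), from 14.0 to 22.3 CPM in shPNISR. MSMO1, the methylsterol oxidase, was at -0.14 ± 0.12, SC5D, a desaturase, at -0.09 ± 0.13, and DHCR7, which makes cholesterol in the last step, at -0.09 ± 0.11. TM7SF2 overlaps VPS51 on the same strand, and DHCR7 overlaps an antisense gene, so some of their reads could belong to either gene.

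CYP51A1, the lanosterol demethylase, had far fewer reads than its neighbours in the pathway, from 43 to 70 in shPNISR and from 44 to 77 in shNC. GENCODE lists the protein-coding genes AC000120.2 and AC000120.3 over it on the same strand, and both held 0 reads in the table. Reads shared between overlapping genes may not have been counted, so its level may be incomplete. The log2 fold change of CYP51A1 was -0.11 ± 0.25, the least precise of the 30. STARD4, a carrier that moves cholesterol between membranes, was at -0.10 ± 0.17, with a coefficient of variation of 24.1% in shPNISR and 2.38% in shNC.

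In the fatty acid branch, ME1 and ELOVL6 stood at opposite ends. ME1, the cytosolic malic enzyme that supplies NADPH (ENSG00000065833, GRCh38 chromosome 6 at 83210389 to 83431071 on the minus strand), was at 76.9, 94.4 and 91.2 CPM in shPNISR 1 to 3, against 69.4, 60.4 and 74.5 CPM in shNC 1 to 3. Every shPNISR value lay above every shNC value, with 76.9 CPM in shPNISR 1 beside 74.5 CPM in shNC 3. The log2 fold change was 0.36 ± 0.12, a fold interval of 1.08 to 1.53 (edgeR adjusted p = 0.114). ELOVL6, which elongates palmitate to stearate (ENSG00000170522, GRCh38 chromosome 4 at 110045846 to 110199199 on the minus strand), was at 29.2, 30.5 and 31.3 CPM in shPNISR 1 to 3, against 40.0, 33.2 and 41.6 CPM in shNC 1 to 3. The shPNISR values lay within 29.2 to 31.3 CPM, below the lowest shNC value. The log2 fold change was -0.34 ± 0.13, a fold interval of 0.657 to 0.956 (edgeR adjusted p = 0.174).

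Among the enzymes of the main route the groups overlapped. ACLY, which splits citrate into cytosolic acetyl-CoA, was at 668, 522 and 537 CPM in shPNISR 1 to 3, against 652, 679 and 540.4 CPM in shNC 1 to 3. FASN, the fatty acid synthase, was at 723, 485 and 595 CPM in shPNISR 1 to 3, against 669, 703 and 523 CPM in shNC 1 to 3. ACACA, the acetyl-CoA carboxylase that makes malonyl-CoA, was at 176, 108 and 152 CPM in shPNISR 1 to 3, against 195, 199 and 132 CPM in shNC 1 to 3. In all 3 genes shPNISR 1, shNC 1 and shNC 2 were the high libraries and shPNISR 2 the lowest, and log2 fold changes were -0.12 ± 0.13, -0.07 ± 0.15 and -0.27 ± 0.19. SCD, which makes oleate from stearate, was at 491, 419 and 442 CPM in shPNISR 1 to 3, against 431, 534 and 371 CPM in shNC 1 to 3. It was highest in shNC 2 and lowest in shNC 3, and its log2 fold change was 0.02 ± 0.13. ACSS2, which activates acetate and overlaps GGT7 on the other strand, was at 0.14 ± 0.14.

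FADS1 and FADS2, the desaturases of polyunsaturated fatty acids, lie beside each other on chromosome 11 and overlap on opposite strands, and FADS2 also overlaps FEN1, so reads may be shared. FADS1 averaged 71.1 ± 5.31 CPM in shPNISR and 74.8 ± 8.17 CPM in shNC, and FADS2 36.3 ± 1.89 CPM in shPNISR and 32.9 ± 3.45 CPM in shNC (SD, 3 libraries each). The log2 fold changes were -0.07 ± 0.12 and 0.14 ± 0.13. On chromosome 17 lie 4 of the 10 fatty acid members, SREBF1, ACLY, ACACA and FASN.

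**Figure D2:**
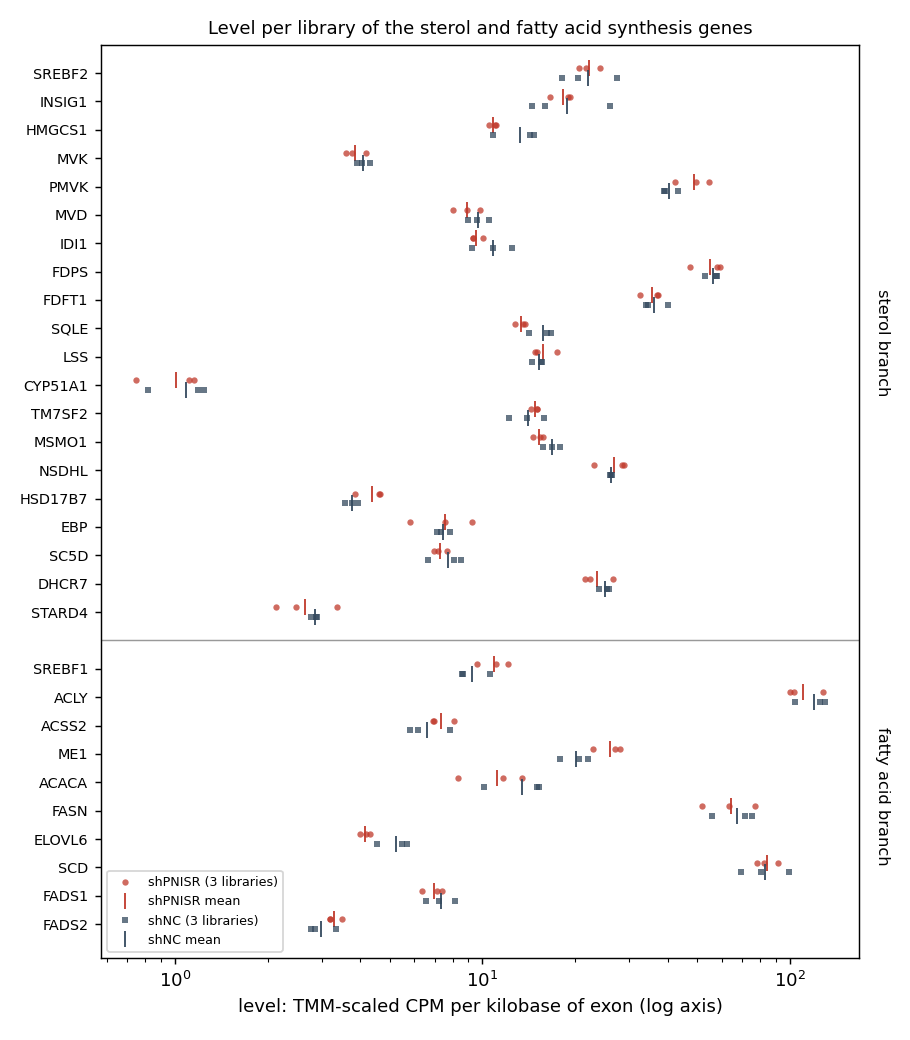
Level of each gene in each library as TMM-scaled CPM per kilobase of exon (log axis), with shPNISR above shNC in each row and ticks for the means of 3 libraries. Levels span from CYP51A1 at 1.04 to ACLY at 115 CPM per kilobase, and points of both groups lie together in nearly every row.

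Levels between genes can be compared per length only. Per kilobase of exon (all annotated exons of a gene merged), the most abundant members were in the fatty acid branch. ACLY was at 110.4 ± 15.4 CPM per kilobase in shPNISR and 119.6 ± 14.1 CPM per kilobase in shNC, SCD at 84.0 ± 6.80 CPM per kilobase in shPNISR and 83.0 ± 15.4 CPM per kilobase in shNC and FASN at 64.2 ± 12.8 CPM per kilobase in shPNISR and 67.4 ± 10.2 CPM per kilobase in shNC (SD, 3 libraries each). In the sterol branch FDPS led with 54.8 ± 6.52 CPM per kilobase in shPNISR and 56.2 ± 2.69 CPM per kilobase in shNC, ahead of PMVK with 48.8 ± 6.05 CPM per kilobase in shPNISR and 40.5 ± 2.46 CPM per kilobase in shNC. FDFT1 averaged 35.9 CPM per kilobase over the 6 libraries, NSDHL 26.4, DHCR7 24.3 and SREBF2 22.1. HMGCS1 was at 12.1, SQLE at 14.5 and LSS at 15.5, and the lowest after CYP51A1 were STARD4 at 2.76, FADS2 at 3.14, MVK at 3.97 and HSD17B7 at 4.06. SREBF1 was at 10.1 CPM per kilobase, below SREBF2 in all 6 libraries. The median was 14.5 CPM per kilobase in the sterol branch and 11.2 in the fatty acid branch. Merged exons can be longer than the transcripts present, so levels per kilobase may be too low for some genes. The order of genes and the branch medians depend on this length.

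The libraries differed in a pattern of their own. Of the 3 shNC libraries, shNC 2 had the highest level in 8 of 10 fatty acid members and 8 of 20 sterol members, against 37.4% of all tested genes. Its log2 level stood above the mean of shNC 1 and shNC 3 by 0.76 in INSIG1, 0.51 in SREBF2, 0.42 in SCD and 0.31 in ACACA, and it lay at -0.42 in HMGCS1, -0.33 in IDI1, -0.32 in SC5D and -0.29 in ELOVL6. In HMGCS1 the mean of the shPNISR libraries lay equally far below shNC 1 and shNC 3, at -0.42. The median shift of shNC 2 was 0.25 over the fatty acid branch and 0.01 over the sterol branch, against 0.00 over all tested genes. Median deviations of the fatty acid branch from the mean of all libraries were 0.16, -0.12 and -0.01 in shPNISR 1 to 3, and -0.01, 0.19 and -0.17 in shNC 1 to 3, so the groups overlapped. In the sterol branch they stayed within 0.06 and -0.07 in shPNISR and within 0.03 and -0.02 in shNC.

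**Figure D3:**
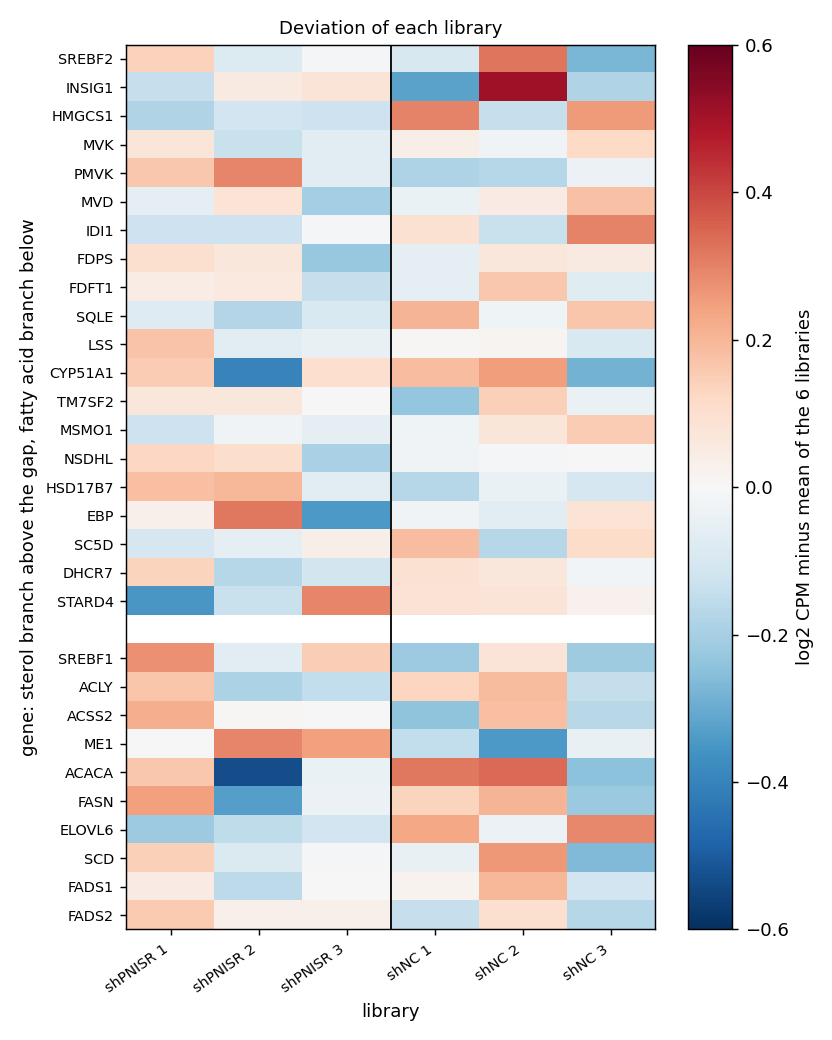
Deviation of each gene's log2 CPM in each library from its mean over the 6 libraries, with shPNISR at left, shNC at right, and the sterol branch above the fatty acid branch. Within shNC, shNC 2 is high for SREBF2, INSIG1 and SCD and low for HMGCS1 and ME1, and shPNISR 2 is low for ACACA and FASN.

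The calls of HMGCS1 and ELOVL6 depended on shNC 2. Without it, HMGCS1 (-0.42, edgeR adjusted p = 0.0192) and ELOVL6 (-0.43, edgeR adjusted p = 0.0256) fell, which is 2 of 30 members while 12.3% of all genes tested in that fit were called. SQLE was at -0.30 and SREBF1 at 0.34 there, and neither passed. With any 1 of the other 5 libraries left out, no member was called.

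GC content went along with the fold change across genes. Over the 30 members the correlation of log2 fold change with the GC content of the longest transcript was 0.31 (Pearson) and 0.41 (Spearman), and over 15989 tested genes it was 0.32 and 0.39. Genes are not independent replicates, and all points share the same 6 libraries. The correlation was 0.41 and 0.51 over the 20 sterol members, and 0.18 and 0.20 over the 10 fatty acid members. The members richest in GC lay on both sides of 0, with FASN (65.3%) and MVD (63.7%) below it and TM7SF2 (64.2%) and SREBF1 (62.8%) above it. Among those poorest in GC, STARD4 (34.2%), MSMO1 (38.1%) and SC5D (38.6%) lay below 0, while ME1 (39.5%) had the highest value of all members. With each library corrected for GC content and exon length, ME1 rose (0.46, edgeR adjusted p = 0.0132), as 1 of 30 members beside 3.22% of all genes tested, 306 higher and 209 lower. SREBF1 was then at 0.07, PMVK at 0.06, HMGCS1 at -0.18 and ELOVL6 at -0.21, with none of the 4 called. With shNC 2 left out as well, 5 of 30 members were called, beside 15.7% of all genes tested. ME1 rose (0.41), and HMGCS1 (-0.28), MVD (-0.39), SQLE (-0.29) and ELOVL6 (-0.30) fell. With the replicate number added to the correction, ME1 was the 1 member called (0.46, edgeR adjusted p = 0.0368), beside 2.36% of all genes.

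**Figure D4:**
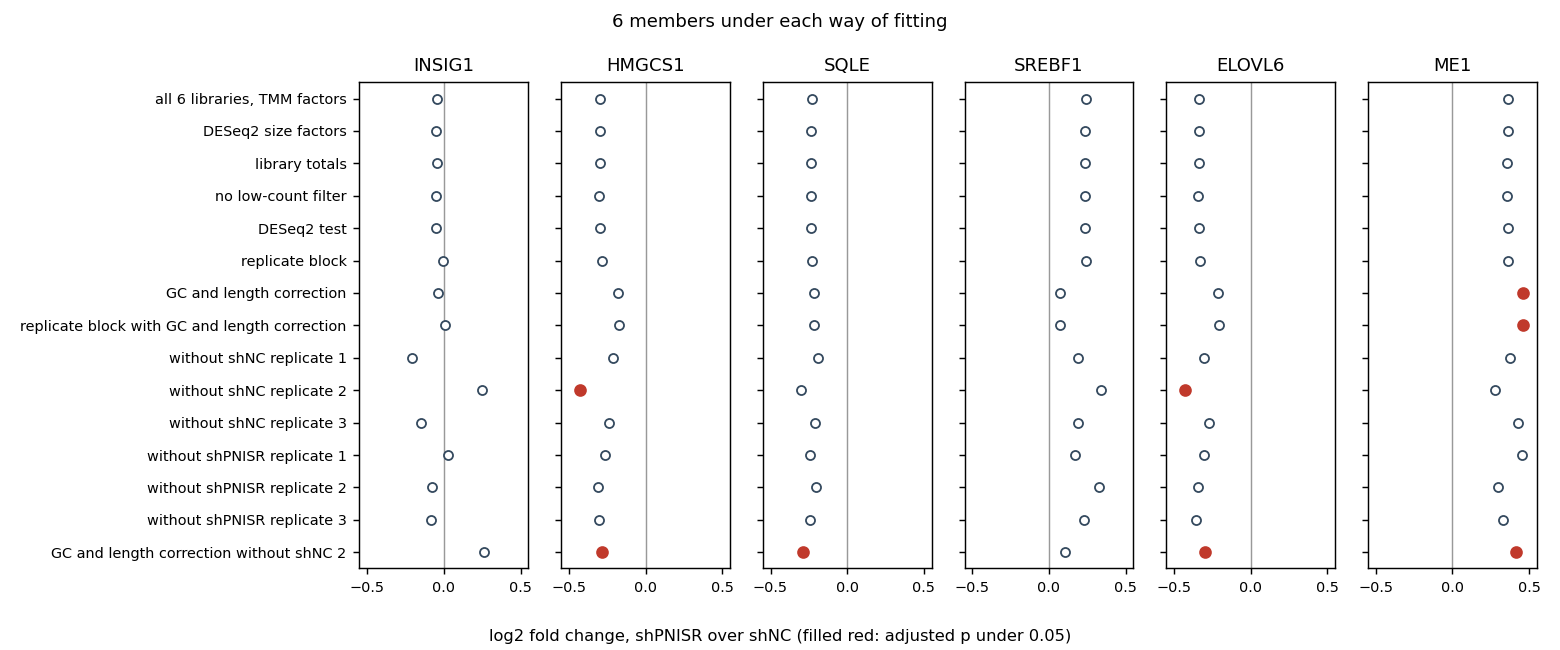
Log2 fold change of shPNISR over shNC for 6 members, each under the fit with all libraries and 14 alternatives; filled red points have an adjusted p under 0.05. HMGCS1, SQLE and ELOVL6 stay below 0 and SREBF1 and ME1 above 0 in all of them, INSIG1 changes sign, and red points occur in the fits without shNC 2 or corrected for GC and length.

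Genes around the pathway were read from 7 lists chosen by role, of 95 genes with 92 tested. Among the 92, 1 rose and none fell, while 3.14% of all tested genes were called. AGPAT2, which makes phosphatidic acid for triglycerides and phospholipids (ENSG00000169692), was at 91.8, 93.8 and 83.6 CPM in shPNISR 1 to 3, against 53.5, 60.9 and 61.4 CPM in shNC 1 to 3. All shPNISR values stood well above all shNC values, with a log2 fold change of 0.62 ± 0.11 (edgeR adjusted p = 0.00465, 1 of 24 tested in the list of fatty acid activation, elongation and glycerolipid synthesis). The call of AGPAT2 held in 13 of 14 alternatives. Corrected for GC and exon length, it was at 0.35 (edgeR adjusted p = 0.0439), and adding the replicate number to that fit ended the call (0.35, adjusted p = 0.0869). DGAT1 and DGAT2, which complete triglycerides, were at 0.39 ± 0.12 and 0.37 ± 0.13 with edgeR adjusted p of 0.0879 and 0.14.

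Of the 11 genes that process or degrade SREBP and its partners, none was called and 8 had values below 0. ERLIN1 and ERLIN2, endoplasmic reticulum proteins that restrain SREBP activation, had the smallest p, with log2 fold changes of -0.32 ± 0.11 and -0.29 ± 0.11. SCAP, the escort protein of SREBP, was at -0.0012, its proteases MBTPS1 and MBTPS2 at 0.09 and -0.07, and INSIG2 at 0.26. Of 17 other sterol and isoprenoid enzymes 11 had values below 0 and none was called. ACAT2, the thiolase that starts the mevalonate route, was at 71.8, 74.1 and 61.1 CPM in shPNISR 1 to 3, against 94.2, 71.7 and 89.2 CPM in shNC 1 to 3. As in HMGCS1, shNC 2 lay among the shPNISR values, and the log2 fold change was -0.30 ± 0.13. PDSS1, of coenzyme Q synthesis, was at -0.31 ± 0.17.

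The liver X receptors respond to oxysterols and drive genes that carry sterol away. Of the 8 listed targets or members of the liver X receptor system, 7 were tested. All 7 had values above 0, with a median of 0.27, and none was called, while 7712 of 16102 tested genes lay above 0. ABCG5 did not pass the low-count filter, and it was at -0.024 in the fit without that filter. Each of the 7 tested genes stayed above 0 in all 14 alternatives, and their median was 0.15 once corrected for GC and length. The alternatives reuse the same libraries, so a kept sign is not separate evidence. MYLIP, of this list, came as low as 0.018. ABCG1, a cholesterol exporter, was at 11.0, 12.8 and 14.9 CPM in shPNISR 1 to 3, against 4.31, 10.0 and 3.66 CPM in shNC 1 to 3. All shPNISR values were above all shNC values, but shNC 2 was close to them and shNC 1 and shNC 3 far below. Its log2 fold change was 1.11 ± 0.31 (edgeR adjusted p = 0.0873), and it was called in 7 of 14 alternatives. Without shNC 2 it was at 1.68 (edgeR adjusted p = 1.9e-05). NR1H2, a liver X receptor, was at 0.32 ± 0.12 and ABCA1 at 0.39 ± 0.29. Among 10 genes of sterol uptake, transport and esterification the median was 0.02, 4 had values below 0 and none was called. VLDLR, a lipoprotein receptor, was at 21.0, 22.0 and 23.6 CPM in shPNISR 1 to 3, against 9.11, 18.6 and 7.99 CPM in shNC 1 to 3. It showed the same order of libraries as ABCG1, a log2 fold change of 0.90 ± 0.26 (edgeR adjusted p = 0.0915), and a call in 7 of 14 alternatives, among them the fit without shNC 2 (1.37, edgeR adjusted p = 1.1e-05). SCARB1, the receptor for high-density lipoprotein, was at 0.37 ± 0.11 (edgeR adjusted p = 0.0705).

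Fatty acid oxidation and NADPH supply gave no call in the main fit (edgeR, all 6 libraries, TMM factors, no block). The median in that fit was 0.10 over 17 oxidation genes, and it was 0.28 without shNC 2 and 0.03 without shNC 3. Over 6 other cytosolic sources of NADPH it was 0.20, and 0.15 to 0.30 over the 14 alternatives. ACADS, the short-chain acyl-CoA dehydrogenase, was at 0.53 ± 0.16 and ACADVL, for very long chains, at 0.28 ± 0.11, and shNC 2 was the highest shNC library in 13 of the 17 genes. ACADS was called in 5 of 14 alternatives (0.29 to 0.76 over all of them), and CPT1A, which admits fatty acids to mitochondria, in 2. With all 6 libraries, DESeq2, the fit without the low-count filter and the replicate block each called 1 oxidation gene higher. Calls over all genes in these fits were 4.38%, 3.36% and 3.15%. PGD and TALDO1, of the pentose phosphate pathway, were at 0.30 ± 0.12 and 0.29 ± 0.12. Without shNC 2, 14 genes of the 7 lists rose and 3 fell, beside calls for 12.3% of all genes, with ABCG1, VLDLR, ACADS and AGPAT2 among those that rose and ACAT2, PDSS1 and GPAM those that fell.

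**Figure D5:**
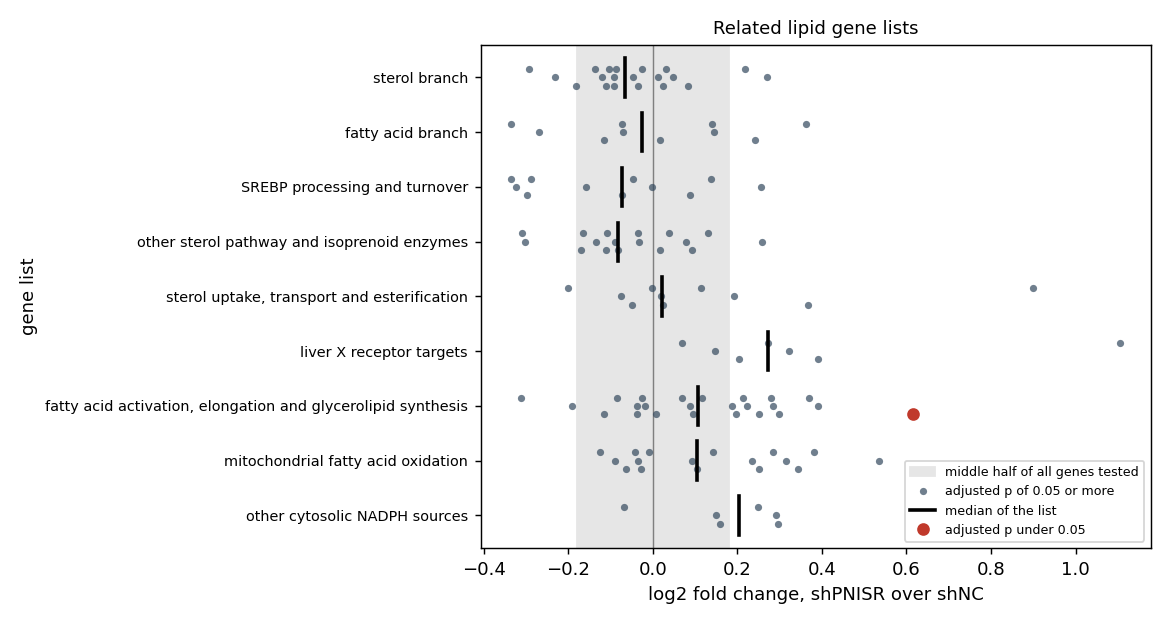
Log2 fold change of shPNISR over shNC for both branches and 7 related lists, 1 point a gene, with a black bar at each list's median and a grey band from the lower to the upper quartile of all tested genes. AGPAT2 is the red point, and the 7 tested liver X receptor genes all lie above 0, with a median of 0.27, beside medians of -0.07 and -0.03 in the sterol and fatty acid branches.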

How the data were processed

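The file the authors deposited holds raw counts (whole numbers, not normalized) of 60664 Ensembl IDs in 6 libraries, and all 6 columns were matched to libraries by name. Per the submitters' processing notes the tools include HISAT2 2.0.4 and the build is GRCh38. The counter and its annotation and strand setting: not given in the sources used here. Antisense and overlapping genes therefore cannot be told apart. Symbols were found for 60463 IDs. Low counts were removed with filterByExpr (minimum count 10, total 15), which left 16102 genes. Libraries were scaled with TMM factors and shPNISR was compared with shNC by edgeR 4.0.16 (R 4.3.3, robust quasi-likelihood test, two-sided, Benjamini-Hochberg over all genes, threshold 0.05). Standard errors and 95% intervals come from the fold change, the test statistic and its degrees of freedom. Per-library deviations used log2(CPM + 0.5). Positions, exon length and GC content came from GENCODE release 29 (GRCh38), which held 99.3% of tested genes. A check for a library deposited more than once found every pair of replicates further apart than counting noise (chi-square per degree of freedom from 9.00 to 20.2), so none was merged; this does not show separate cultures.

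The members and lists were chosen with earlier results of these data known. Lists were not tested as sets. Full values are given for the regulators, the 4 members of each branch with the smallest p, the 2 with the highest level per kilobase and those called in 2 or more settings; from each related list, up to 4 called genes or the 2 with the smallest p are named, with a fold change and its error. FASN, CYP51A1 and any further gene named were picked with their values in view. Alternatives were DESeq2 size factors, library totals, no low-count filter, DESeq2 1.42.0, the replicate number as a block, leaving out each library, and a loess correction (span 0.4) for GC content and length. On data simulated for shPNISR against shNC over 15868 genes, the test called 97 of the 100 genes given a 2-fold change, 55 of the 100 given a 1.5-fold change and 12 unchanged genes. Genes were drawn independently there, without a shift that many genes of a library share, such as that of shNC 2 or of GC content. Changes were given only to genes above a minimum level, which CYP51A1 did not reach. Figures were drawn with matplotlib 3.10.9.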

Additional observations from a re-analysis of the deposited data

How the results depend on the processing

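Replicate numbers did not pair the libraries (correlation of deviations 0.14, -0.10 and -0.17 for numbers 1 to 3); with the replicate block 508 genes were called (390 higher, 118 lower), 4 genes of the related lists rose and no member was called. Counts of all genes moved with the setting. Library totals gave 71 lower genes, the DESeq2 test 229, and the correction for GC and length 209; without the low-count filter 642 genes rose and 354 fell, and with the block plus the correction 241 rose. With both the correction and shNC 2 left out, an alternative chosen after seeing the data, 1143 rose and 1433 fell. Leaving out 1 library gave 133 (without shPNISR 1) to 1284 (without shNC 2) higher and 30 (without shPNISR 1) to 746 (without shNC 2) lower genes. Genes of the related lists that rose numbered 4 without the filter, 5 with DESeq2 and 2 with the block plus the correction. Calls over all genes, in either direction, were 3.36%, 4.38% and 2.36% in these 3 fits. With a library left out, 1 to 14 list genes rose and 0 to 3 fell. Calls over all genes were then 0.994% (without shPNISR 1) to 12.3% (without shNC 2). With shNC 2 left out and the correction, 11 list genes rose and 3 fell, beside 15.7% of all genes. Members called were 0 in 10 of 14 alternatives. The corrected fit and its form with the block called 1 fatty acid member higher; without shNC 2, 1 member of each branch fell, and 0 fell without any other library; with the correction and without shNC 2, 3 sterol members fell, 1 fatty acid member fell and 1 rose. The sterol median ran from -0.066 to -0.014 with a library left out, and the fatty acid median from -0.12 (without shNC 3) to 0.08 (without shNC 2).

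PNISR stayed lower and called in all 14 alternatives. Of 420 member values, 365 kept their direction and side of the threshold, 9 became calls and 46 changed sign, none of these 46 being called in the fit that turned it. With the correction the signs turned for SREBF2 (-0.087), LSS (-0.081), TM7SF2 (-0.15), NSDHL (-0.051), EBP (-0.11), SC5D (0.053) and STARD4 (0.064). With the block as well they turned for SREBF2 (-0.076), INSIG1 (0.0081), LSS (-0.081), TM7SF2 (-0.15), NSDHL (-0.054), EBP (-0.12), SC5D (0.057) and STARD4 (0.061). With the correction and without shNC 2 they turned for INSIG1 (0.26), FDFT1 (0.028), LSS (-0.12), CYP51A1 (0.085), TM7SF2 (-0.10), MSMO1 (0.024), NSDHL (-0.058), EBP (-0.16) and STARD4 (0.14). Leaving out 1 library gave SREBF2 -0.11 to 0.20, INSIG1 -0.20 to 0.25, FDPS -0.086 to 0.059, FDFT1 -0.068 to 0.050, LSS -0.024 to 0.086, CYP51A1 -0.28 to 0.058, TM7SF2 -0.0091 to 0.18, NSDHL -0.018 to 0.13, EBP -0.15 to 0.18, STARD4 -0.31 to 0.040, FASN -0.22 to 0.057, SCD -0.10 to 0.16 and FADS1 -0.15 to 0.0065. The cause was not tested. At this depth changes of 1.5-fold were recovered in part in data simulated without shifts shared by the genes of a library. CYP51A1, with 43 to 77 reads a library, is the least precise member and was below the level at which changes were simulated.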
